A study of Mus musculus with 30 samples.

Results

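Genes that encode surface proteins, matrix glycoproteins, galectins, a chitinase-like protein and a focal adhesion protein were followed across mouse brain tumors and normal brain: Cd44, Emp1, Tnc, Fn1, Sparc, Postn, Lgals1, Lgals3, Chi3l1 and Tes. They are 10 of the 19938 genes that the array measured with a probe set naming 1 gene. They were chosen by name, as genes known from the mesenchymal state of glioma, with earlier results of these data in view. The selection rule itself used 1 measured value, the mean over all 30 arrays, which picks the brightest of several probe sets of a gene. Each of the 10 had exactly 1 probe set, so that value decided nothing, and no threshold separates members from other genes. The choice by name was not blind to these data, so the counts below are no test on an independently chosen set. Chi3l1 stands under its newer symbol Chil1 in the annotation tables.

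In glioblastoma, the mesenchymal state is a set of genes for adhesion, migration and wound repair that tumor cells switch on in place of neural genes. Several of its products work outside the cell. Tenascin-C, fibronectin, SPARC and periostin are laid down in the matrix, where integrins bind them, CD44 binds the matrix sugar hyaluronan, and galectins cross-link sugar chains on surface proteins. Testin joins the focal adhesions that tie integrins to the actin skeleton. Reactive astrocytes, macrophages, fibroblasts and vessel cells can make many of the same products.

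Total RNA of dissected tissue was measured on 30 arrays in 7 groups. The controls were 4 samples of normal cortex and 4 of normal hippocampus, whose labels give no promoter. Tumors followed injection of a Cre construct driven by the GFAP promoter into cortex (4 samples), hippocampus (7) or the subventricular zone, SVZ (3), by the SYN1 promoter into cortex (4), or by the NES promoter into hippocampus (4). GFAP marks astrocytes, SYN1 neurons and NES neural progenitors, and the comparisons ask how the 10 genes differ between each tumor group and normal brain, and between tumors begun with another promoter or in another region. The labels used here give no strain, age, host genotype or vector, name no normal SVZ tissue, and do not say that arrays of a group came from separate animals. What the p-values weigh is thus the spread among these arrays, and that spread may be technical. In these bulk samples, fewer cells of a type and less RNA per cell cannot be told apart.

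Every value is a log2 signal, so 1 unit is a doubling of brightness. The signal includes background, so a low value does not show absence and differences of dim genes are understated. Levels are compared between arrays for the same gene, never between genes. Array medians ran from 7.03 to 7.30. The interquartile range of an array ran from 2.02 in GFAP cortex tumor 1 to 3.07 in GFAP hippocampus tumor 3. It was 2.26, 2.54 and 2.38 in GFAP hippocampus tumors 5 to 7. GFAP cortex tumor 1 and GFAP hippocampus tumors 5 to 7 stood apart over all genes, with scores from -74.68 to -55.86 on the second principal component where all other arrays had -13.20 to 33.02, and normal hippocampus 3 was the highest of its group in 7 of the 10 genes. Values without some of these arrays stand beside several of the results they change. The neuronal transcript Snap25 lay between 13.66 and 14.12 in the 8 normal arrays and between 8.20 and 13.52 in the tumors. The astrocyte transcript Gfap lay between 8.80 and 10.41 in the normal arrays and between 6.89 and 11.93 in GFAP cortex tumors.

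Of the 10 genes, 9 were higher and 0 lower in each of the 5 tumor groups than in normal brain (limma over all genes, Benjamini-Hochberg adjusted p under 0.05, group means ± standard errors of the fit). In GFAP cortex tumors the 9 higher genes stand beside 9.00% of all 19938 genes called higher and 18.8% called lower. The same shares of all genes were 18.2% and 20.5% in SYN1 cortex tumors, 16.1% and 25.2% in GFAP hippocampus tumors and 5.69% and 2.86% in NES hippocampus tumors. In SVZ tumors, set against the mean of both normal tissues, they were 16.2% and 21.4%. The median log2 difference of the 10 genes was 2.76 in GFAP cortex, 3.22 in SYN1 cortex, 2.77 in GFAP hippocampus, 2.25 in NES hippocampus and 2.95 in SVZ tumors, where the median of all genes lay between -0.10 and 0.00. At an unadjusted p under 0.05 no gene of the 10 was lower either. The GFAP and SYN1 cortex comparisons share their normal arrays, as do the GFAP and NES hippocampus comparisons, and SVZ tumors were compared with all 8 normal arrays. These counts are therefore not separate pieces of evidence.

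The calls that were missing fell on 2 genes. Chi3l1 did not pass in the cortex tumors of either promoter, and Postn did not pass in GFAP hippocampus, NES hippocampus and SVZ tumors. Every tumor array exceeded every normal array of the comparison for 9 of the 10 genes in GFAP cortex tumors (13.3% of all genes did so), 9 in SYN1 cortex tumors (23.1%), 6 in GFAP hippocampus tumors (8.43%), 10 in NES hippocampus tumors (13.6%) and 9 in SVZ tumors (19.1%). Over all regions, the 22 tumor arrays lay above all 8 normal arrays without exception for Cd44, Tnc, Lgals1, Sparc and Tes. For Emp1, Fn1 and Lgals3 21 of the 22 did so, for Chi3l1 19 and for Postn 18.

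**Figure D1:**
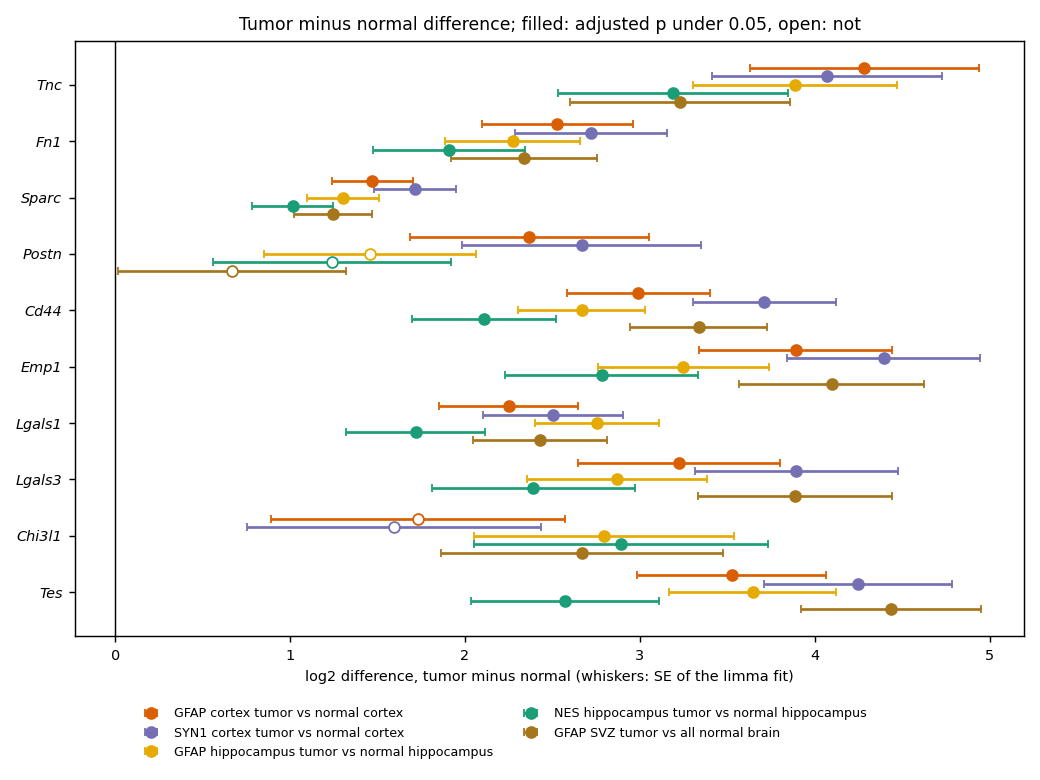
Log2 difference between each tumor group and its normal tissue for the 10 genes, with whiskers for the standard error of the limma fit; filled points passed at adjusted p under 0.05 and open points did not. All 50 points lie to the right of 0, and the 5 open ones belong to Postn (1.46, 1.24 and 0.67) and Chi3l1 (1.73 and 1.59).

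Cd44 encodes the receptor for hyaluronan, a surface glycoprotein of migrating cells. Its levels were 6.20, 6.56, 6.12 and 6.58 in normal cortex and 6.46, 6.41, 7.61 and 6.44 in normal hippocampus. In cortex tumors they were 9.29, 8.77, 9.79 and 9.58 with the GFAP promoter and 10.27, 9.83, 10.18 and 10.01 with SYN1. The SYN1 tumors were thus high and close to each other, and neither tumor group overlapped with normal cortex. GFAP hippocampus tumors had 7.69 at the lowest, 9.77 at the median and 10.05 at the highest, NES tumors had 9.93, 9.01, 8.21 and 8.21 and SVZ tumors 9.45, 9.79 and 10.41. The lowest of these 22 tumor values, 7.69 in GFAP hippocampus tumor 5, lay just above the highest normal one, 7.61 in normal hippocampus 3. Cd44 rose by 2.99 ± 0.41 in GFAP cortex tumors (7.95-fold, limma adjusted p = 2.23e-05) and by 3.71 ± 0.41 in SYN1 tumors (13.1-fold, adjusted p = 3.42e-07). The rise was 2.67 ± 0.36 in GFAP hippocampus tumors (adjusted p = 3.56e-06), 2.11 ± 0.41 in NES tumors (adjusted p = 0.0015) and 3.34 ± 0.39 in SVZ tumors (adjusted p = 9.68e-07). Without normal hippocampus 3 it was 2.96 in GFAP hippocampus and 2.40 in NES tumors.

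Emp1 encodes a small membrane protein of the family of peripheral myelin protein 22. Normal cortex had levels of 6.90, 7.83, 6.97 and 8.03 and normal hippocampus 7.85, 7.11, 9.08 and 7.44. GFAP cortex tumors had 11.30, 10.75, 11.62 and 11.62 and SYN1 cortex tumors 12.03, 11.38, 12.11 and 11.79. Every cortex tumor therefore stood more than 2 log2 units above every normal cortex array. The 7 GFAP hippocampus tumors had 8.66 at the lowest, 11.35 at the median and 11.94 at the highest, the NES tumors had 12.19, 10.36, 9.65 and 10.39 and the SVZ tumors 11.61, 11.50 and 12.13. GFAP hippocampus tumor 5, at 8.66, lay below normal hippocampus 3, at 9.08, and was the only tumor array to do so. The difference of Emp1 was 3.89 ± 0.55 in GFAP cortex tumors (14.8-fold, limma adjusted p = 3.21e-05), the 5th largest positive one of all genes there. It was 4.39 ± 0.55 in SYN1 tumors (21-fold, adjusted p = 1.4e-06) and 4.10 ± 0.53 in SVZ tumors (adjusted p = 2.53e-06). In hippocampus it was 3.25 ± 0.49 with the GFAP promoter (adjusted p = 1.24e-05) and 2.78 ± 0.55 with NES (adjusted p = 0.00182).

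Promoter windows from RefSeq (GRCm38.p6), 250 bases before to 50 after an annotated start, were at hand for 8 of the 10 genes, 11 windows in all. Those of Emp1, Cd44 and Lgals3 are shown because Emp1 alone held a match to the AP-1 letters TGANTCA and because Cd44 was, of all named genes, the one whose levels were most like those of Lgals3. Capitals mark the AP-1 matches, and each sequence runs 5′ to 3′ on the strand of the gene. The Emp1 window is chr6:135362681-135362980 (plus strand), that of Cd44 is chr2:102901616-102901915 (minus strand) and that of Lgals3 is chr14:47373610-47373909 (plus strand).
Emp1: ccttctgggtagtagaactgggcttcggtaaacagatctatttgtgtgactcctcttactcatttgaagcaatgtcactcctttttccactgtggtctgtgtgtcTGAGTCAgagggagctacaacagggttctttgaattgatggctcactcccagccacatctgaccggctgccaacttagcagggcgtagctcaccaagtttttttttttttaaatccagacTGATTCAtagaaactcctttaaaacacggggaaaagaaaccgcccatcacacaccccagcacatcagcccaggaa
Cd44: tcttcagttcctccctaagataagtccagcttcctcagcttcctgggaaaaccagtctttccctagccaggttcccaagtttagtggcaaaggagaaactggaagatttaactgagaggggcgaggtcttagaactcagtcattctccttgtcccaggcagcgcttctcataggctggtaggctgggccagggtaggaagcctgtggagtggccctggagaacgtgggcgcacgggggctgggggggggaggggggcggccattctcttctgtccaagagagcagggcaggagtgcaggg
Lgals3: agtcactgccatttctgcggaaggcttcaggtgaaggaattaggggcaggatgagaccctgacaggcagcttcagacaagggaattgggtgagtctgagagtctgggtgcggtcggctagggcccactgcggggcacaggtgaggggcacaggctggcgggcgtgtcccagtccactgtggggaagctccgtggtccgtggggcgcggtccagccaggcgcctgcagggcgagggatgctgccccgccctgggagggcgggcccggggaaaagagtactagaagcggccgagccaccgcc
In Emp1, TGAGTCA begins 145 bases before the start and TGATTCA 25 bases before it. Both strands of all 11 windows were searched for 5 motifs. AP-1 letters occurred in 1 of 11 windows (7.81% of all 32851 windows in the table). The TEAD letters GGAATG occurred in 0 (14.7%) and the STAT letters TTCNNNGAA in 1, again Emp1 (8.30%). The STAT matches there are TTCTTTGAA, with its first base at -120 from the start, and TTCATAGAA, at -22. Only the latter overlaps an AP-1 match, the second. The C/EBP letters TTGCNNAA occurred in 1, of Postn (10.8%), and TATAAA in 3, of Postn and Tnc (13.6%). The Tnc windows, chr4:64046966-64047265 and chr4:64046887-64047186, overlap and share 1 match, so these 3 windows hold 2 sites. A match describes the letters in the window and shows no binding.

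Among the matrix glycoproteins, Tnc encodes tenascin-C, which loosens cell attachment and is made in development, wounds and glioma. Normal cortex had levels of 7.63, 8.51, 7.12 and 9.05 and normal hippocampus 8.69, 7.77, 8.43 and 8.41. GFAP cortex tumors had 13.15, 11.41, 12.35 and 12.53, and SYN1 cortex tumors 12.89, 11.56, 11.52 and 12.62. The normal cortex arrays themselves spread over almost 2 units, and still no cortex tumor came within 2 units of them. GFAP hippocampus tumors had 10.40 at the lowest, 12.69 at the median and 13.41 at the highest, NES tumors had 12.82, 11.96, 10.49 and 10.77 and SVZ tumors 12.36, 12.69 and 9.23. SVZ tumor 3, at 9.23, was the lowest of the 22 tumors and close to the highest normal array at 9.05. Tnc rose by 4.28 ± 0.66 in GFAP cortex tumors (19.5-fold, limma adjusted p = 6.77e-05), the 2nd largest positive difference of all genes, and by 3.89 ± 0.58 in GFAP hippocampus tumors (14.8-fold, adjusted p = 1.13e-05), the 6th largest. SYN1 tumors were higher by 4.07 ± 0.66 (adjusted p = 2.22e-05), NES tumors by 3.19 ± 0.66 (adjusted p = 0.00251) and SVZ tumors by 3.23 ± 0.63 (adjusted p = 0.000192). Without SVZ tumor 3 the last difference was 4.33.

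Fn1 encodes fibronectin, the main ligand of several integrins. Its level was 9.83 ± 0.13 (SD, n = 4) in normal cortex and 9.81 ± 0.46 (SD, n = 4) in normal hippocampus. Cortex tumors had 13.30, 11.43, 12.29 and 12.40 with GFAP and 12.38, 12.33, 12.73 and 12.75 with SYN1. Those groups lay wholly above normal cortex, with the highest value of all 30 arrays, 13.30, in GFAP cortex tumor 1. GFAP hippocampus tumors had 10.34 at the lowest, 12.61 at the median and 12.76 at the highest. Tumor 5, at 10.34, lay within the normal hippocampus range of 9.46 to 10.47. NES tumors had 12.71, 11.83, 11.28 and 11.05 and SVZ tumors 12.21, 12.71 and 11.56. GFAP cortex tumors differed from normal cortex by 2.53 ± 0.43 (limma adjusted p = 0.000198), SYN1 tumors by 2.72 ± 0.43 (2e-05), and, from their own controls, GFAP hippocampus tumors by 2.27 ± 0.38 (4.88e-05), NES tumors by 1.91 ± 0.43 (0.00588) and SVZ tumors by 2.34 ± 0.42 (7.59e-05).

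Sparc encodes a collagen-binding glycoprotein that astrocytes and vessels already make in normal brain. It had the smallest rises that passed among the 10 genes in each comparison, but also small spreads. Levels were 11.48, 11.72, 11.38 and 11.62 in normal cortex and 12.00, 11.85, 12.54 and 11.98 in normal hippocampus. Tumor groups had means of 13.02 ± 0.34 (SD, n = 4) for GFAP cortex, 13.27 ± 0.27 (SD, n = 4) for SYN1 cortex, 13.39 ± 0.45 (SD, n = 7) for GFAP hippocampus, 13.10 ± 0.40 (SD, n = 4) for NES hippocampus and 13.06 ± 0.17 (SD, n = 3) for SVZ. No tumor array overlapped with a normal one, the closest being NES tumor 4 at 12.60 and normal hippocampus 3 at 12.54. The rise was 1.47 ± 0.23 in GFAP cortex tumors (2.77-fold, limma adjusted p = 9.47e-05) and 1.71 ± 0.23 in SYN1 tumors (adjusted p = 3.25e-06). It was 1.30 ± 0.21 in GFAP hippocampus tumors (adjusted p = 2.31e-05), 1.01 ± 0.23 in NES tumors (2.02-fold, adjusted p = 0.00643) and 1.24 ± 0.22 in SVZ tumors (adjusted p = 8.44e-05). Every normal hippocampus array had more Sparc signal than every normal cortex array, by 0.54 ± 0.23 on average, which did not pass over all genes (limma adjusted p = 0.667).

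Postn encodes periostin, a matrix protein of fibroblast-rich and remodelling tissue. It was dim and even in normal brain, at 6.93, 6.42, 6.77 and 6.86 in cortex and 6.85, 6.52, 6.36 and 6.42 in hippocampus. In tumors it varied by 5.18 units, from 6.51 in SVZ tumor 3 to 11.69 in GFAP cortex tumor 1. GFAP cortex tumors had 11.69, 7.34, 8.07 and 9.37 and SYN1 cortex tumors 10.11, 8.16, 8.87 and 10.52, all above normal cortex. In GFAP hippocampus tumors it had 6.80 at the lowest, 8.08 at the median and 9.00 at the highest, where the lowest arrays reached the top of the normal range. NES tumors had 8.95, 8.0, 7.25 and 6.91 and SVZ tumors 7.49, 7.94 and 6.51. Postn rose by 2.67 ± 0.68 in SYN1 tumors (6.35-fold, limma adjusted p = 0.00251) and by 2.37 ± 0.68 in GFAP cortex tumors (5.16-fold, adjusted p = 0.0104). The latter call was lost, at the same difference, with only the arrays of the groups compared (adjusted p = 0.0588) and with a replicate block (adjusted p = 0.0543). Without GFAP cortex tumor 1 the difference was 1.51 (adjusted p = 0.0717). Fibroblast and mural cell markers averaged 10.36 in that array, while tumors 2 to 4 of its group had 8.65 to 9.51, and the collagen transcript Col1a1 ranged from 8.13 to 12.85 in the group. The part of these cells in the Postn level was not tested.

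In the remaining groups the Postn difference did not pass. It was 1.46 ± 0.60 in GFAP hippocampus tumors (limma adjusted p = 0.055), 1.24 ± 0.68 in NES tumors (adjusted p = 0.296) and 0.67 ± 0.65 in SVZ tumors (adjusted p = 0.484). In GFAP hippocampus tumors it passed without tumor 5 (1.66, adjusted p = 0.0297) or tumor 6 (1.65, 0.0349). It also passed there without GFAP cortex tumor 1 (0.018) or 2 (0.039), which act only through the pooled spread. With tumors 1 to 4 alone it was 2.19 (adjusted p = 0.00742), and with tumors 5 to 7 alone 0.48 (0.61). Median centring, removal of the lowest genes, only the groups compared, array weights and a replicate block also gave a call in GFAP hippocampus tumors. In NES tumors Postn passed with array weights and with a replicate block (limma adjusted p from 0.00195 to 0.0282). In SVZ tumors it passed with array weights and with only the groups compared (0.00952 to 0.0319).

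**Figure D2:**
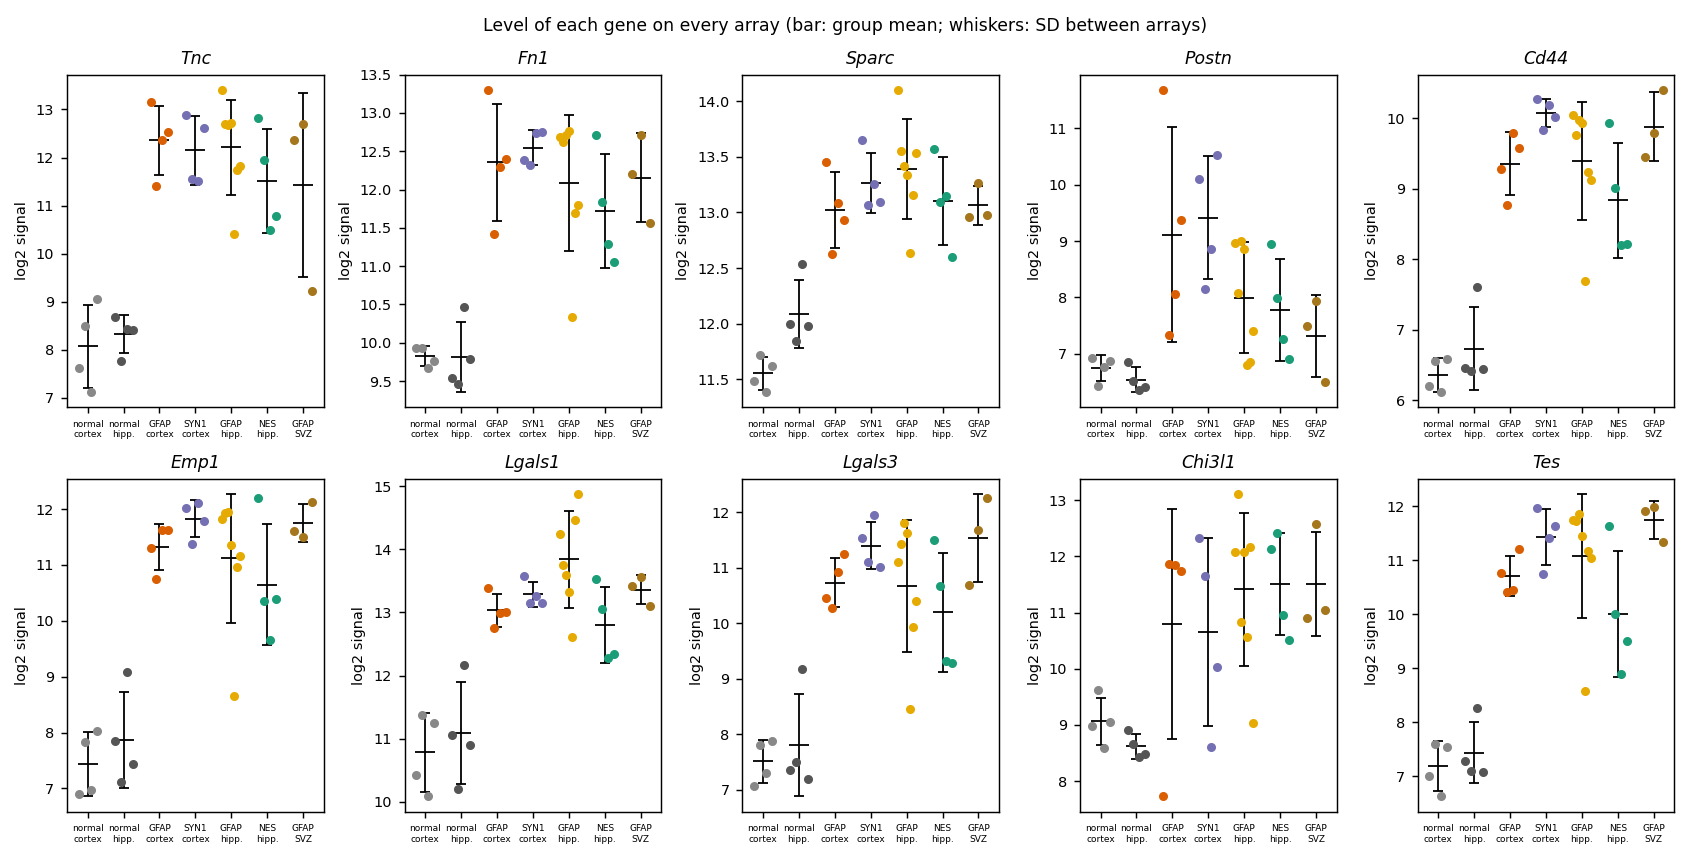
Log2 signal of each gene on all 30 arrays by group, each point 1 array, with the group mean (bar) and SD between arrays (whiskers); each panel has its own vertical axis, which does not start at 0. Tumor points lie above the normal ones except for Emp1, Fn1 and Lgals3 in GFAP hippocampus tumor 5, and for some Chi3l1 and Postn arrays; Chi3l1 in GFAP cortex tumor 1 sits at 7.73, below every normal array.

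The galectins Lgals1 and Lgals3 encode secreted lectins that bind galactose-rich sugar chains on cell and matrix proteins; Lgals3 is also abundant in activated macrophages and microglia. Lgals1 was 10.42, 11.38, 10.09 and 11.25 in normal cortex and 11.06, 10.21, 12.16 and 10.91 in normal hippocampus. Tumor arrays ran from 12.28 in NES tumor 3 to 14.88 in GFAP hippocampus tumor 7, so all 22 lay above the highest normal array at 12.16. Group means were 13.03 ± 0.26 (SD, n = 4) in GFAP cortex, 13.29 ± 0.20 (SD, n = 4) in SYN1 cortex, 13.84 ± 0.76 (SD, n = 7) in GFAP hippocampus, 12.80 ± 0.60 (SD, n = 4) in NES hippocampus and 13.36 ± 0.23 (SD, n = 3) in SVZ tumors. GFAP hippocampus tumors 6 and 7, with 14.47 and 14.88, had the 2 highest values of all 30 arrays. The rise was 2.25 ± 0.40, 2.50 ± 0.40, 2.76 ± 0.35, 1.72 ± 0.40 and 2.43 ± 0.38 in the same order (limma adjusted p = 0.000264, 1.97e-05, 1.71e-06, 0.00682 and 2.03e-05).

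Lgals3 had levels of 7.06, 7.80, 7.30 and 7.87 in normal cortex and 7.36, 7.50, 9.18 and 7.19 in normal hippocampus. GFAP cortex tumors had 10.46, 10.28, 10.93 and 11.26 and SYN1 cortex tumors 11.54, 11.11, 11.95 and 11.02. These values did not overlap with normal cortex. GFAP hippocampus tumors had 8.45 at the lowest, 11.10 at the median and 11.81 at the highest, NES tumors had 11.50, 10.67, 9.33 and 9.29 and SVZ tumors 10.69, 11.68 and 12.25. Normal hippocampus 3, at 9.18, lay above GFAP hippocampus tumor 5, at 8.45, and just under NES tumor 4, at 9.29. Lgals3 rose by 3.22 ± 0.58 in GFAP cortex (9.34-fold, limma adjusted p = 0.000298), 3.89 ± 0.58 in SYN1 cortex (14.9-fold, 9.11e-06) and 3.89 ± 0.56 in SVZ tumors (7.25e-06). In hippocampus the rise was 2.87 ± 0.51 with GFAP (9.26e-05) and 2.39 ± 0.58 with NES (0.00944), or 3.33 and 2.85 without normal hippocampus 3. In NES tumors it did not pass without NES tumor 1 (1.96, adjusted p = 0.0684).

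Chi3l1 encodes a chitinase-like glycoprotein without enzyme activity, secreted by reactive astrocytes and by macrophages. It was 8.99, 9.62, 8.59 and 9.06 in normal cortex and 8.92, 8.66, 8.42 and 8.48 in normal hippocampus. Among GFAP cortex tumors, tumors 2 to 4 had 11.87, 11.85 and 11.74, while tumor 1 had 7.73, the lowest value of all 30 arrays. SYN1 cortex tumors had 12.33, 11.66, 8.60 and 10.03, with tumor 3 inside the normal cortex range of 8.59 to 9.62. GFAP hippocampus tumors had 9.04 at the lowest, 12.08 at the median and 13.11 at the highest, NES tumors had 12.13, 12.43, 10.97 and 10.52 and SVZ tumors 10.91, 12.58 and 11.04. These hippocampus and SVZ tumors lay above all arrays of the normal tissue they were compared with, GFAP hippocampus tumor 7, at 9.04, by the smallest margin. Chi3l1 rose by 2.79 ± 0.75 in GFAP hippocampus (6.94-fold, limma adjusted p = 0.00401), 2.89 ± 0.84 in NES hippocampus (7.43-fold, 0.0297) and 2.67 ± 0.81 in SVZ tumors (6.35-fold, 0.00965). The NES call was lost without NES tumor 1 or 2 or any of the 4 normal hippocampus arrays (differences from 2.59 to 2.99, adjusted p up to 0.120), and the SVZ call without SVZ tumor 2 (2.13, 0.0898). The GFAP hippocampus call was lost with tumors 5 to 7 alone (1.97, limma adjusted p = 0.0799).

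In cortex the Chi3l1 difference was 1.73 ± 0.84 with GFAP (limma adjusted p = 0.135) and 1.59 ± 0.84 with SYN1 (adjusted p = 0.146), and neither passed. Without GFAP cortex tumor 1 the former was 2.75 (adjusted p = 0.0115), and without SYN1 tumor 3 the latter was 2.28 (adjusted p = 0.0387). Both passed. The mean level of 8 astrocyte markers was 7.74 in GFAP cortex tumor 1 against 10.49 to 11.04 in tumors 2 to 4, and 9.16 in SYN1 tumor 3 against 9.86 to 10.09 in SYN1 tumors 1, 2 and 4. Each of these arrays also had the lowest macrophage and microglia marker mean of its group, 9.15 against 9.51 to 10.26 in GFAP cortex tumors and 8.86 against 9.31 to 10.33 in SYN1 tumors. Both arrays were also the lowest of their groups in neuron markers (8.15 against 10.74 to 11.66, and 9.19 against 9.80 to 10.18). The same held for oligodendrocyte markers (7.38 against 9.66 to 10.74, and 8.23 against 8.95 to 9.76). Among GFAP hippocampus tumors, tumor 1 had the lowest astrocyte mean, 9.61, with Chi3l1 at 12.08. Tumor 5 of that group had the highest, 11.67, with Chi3l1 at 10.56. The part of any of these cell types in the Chi3l1 level was not tested.

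**Figure D3:**
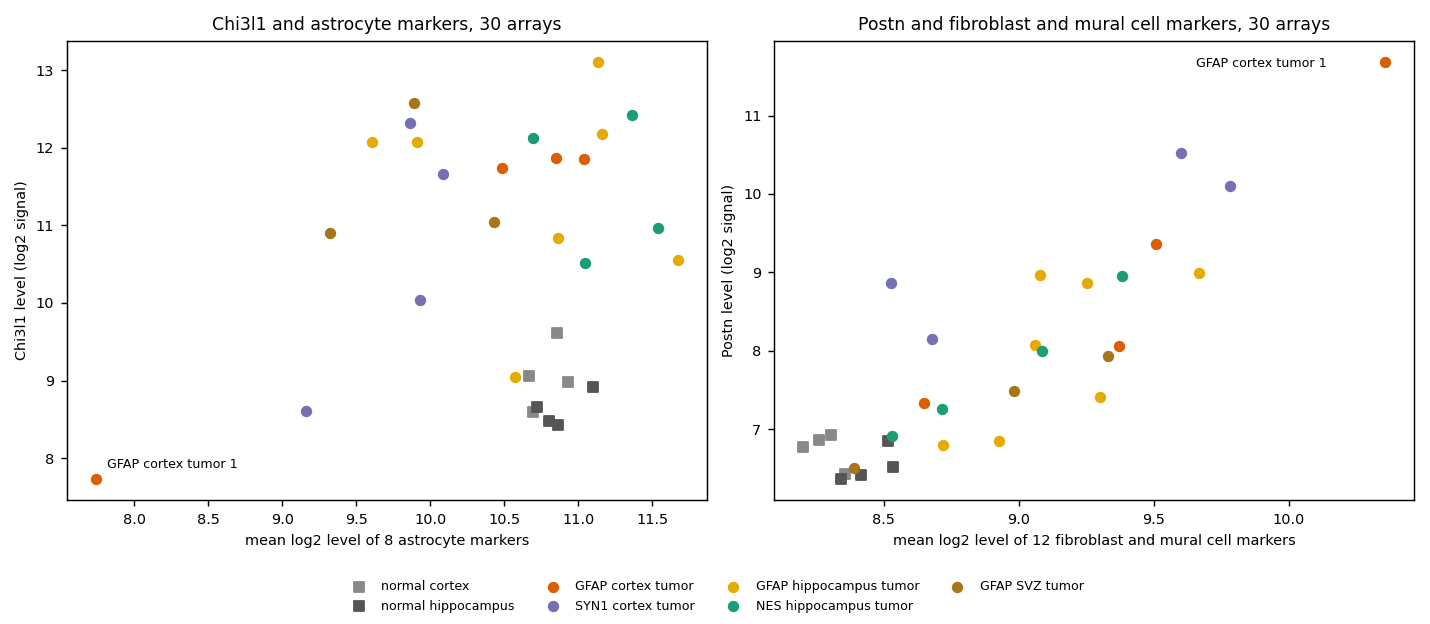
Left, Chi3l1 level against the mean log2 level of 8 astrocyte markers; right, Postn level against the mean of 12 fibroblast and mural cell markers; each point is 1 of the 30 arrays, with squares for normal brain. GFAP cortex tumor 1 lies at the corner of both plots, with Chi3l1 at 7.73 and an astrocyte mean of 7.74, and with Postn at 11.69 and a fibroblast and mural cell mean of 10.36.

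Tes encodes testin, a LIM-domain protein of focal adhesions and actin stress fibers. Normal cortex had 7.0, 7.59, 6.63 and 7.54 and normal hippocampus 7.29, 7.10, 8.27 and 7.08. GFAP cortex tumors had 10.77, 10.42, 10.45 and 11.21 and SYN1 cortex tumors 11.96, 10.74, 11.41 and 11.63. Each of these cortex tumors lay more than 2 units above every normal cortex array. GFAP hippocampus tumors had 8.58 at the lowest, 11.45 at the median and 11.85 at the highest, NES tumors from 8.90 to 11.63 (mean 10.01 ± 1.17, SD, n = 4), and SVZ tumors had 11.91, 11.99 and 11.34. GFAP hippocampus tumor 5 and NES tumor 3 were the lowest tumors, yet above the 8.27 of normal hippocampus 3. The difference was 4.44 ± 0.52 in SVZ tumors (21.6-fold, limma adjusted p = 8.87e-07), the 8th largest positive one of all genes, and 3.65 ± 0.48 in GFAP hippocampus tumors (12.5-fold, adjusted p = 2.11e-06), the 11th largest. It was 4.25 ± 0.54 in SYN1 tumors (adjusted p = 1.55e-06), 3.52 ± 0.54 in GFAP cortex tumors (adjusted p = 6.73e-05) and 2.57 ± 0.54 in NES tumors (adjusted p = 0.00294).

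When the 7 groups were ordered by mean level, tumor groups took the upper 5 places for all 10 genes. SYN1 cortex tumors had the highest mean for Cd44, Emp1, Fn1 and Postn, SVZ tumors for Lgals3 and Tes, GFAP hippocampus tumors for Lgals1 and Sparc, GFAP cortex tumors for Tnc and NES tumors for Chi3l1. NES tumors had the lowest tumor mean for Cd44, Emp1, Fn1, Lgals1, Lgals3 and Tes. For 8 genes the only neighbours in the order that differed were the lowest tumor group and the highest normal group. These were NES tumors and normal hippocampus for Cd44, Emp1, Lgals1, Lgals3 and Tes (comparison given above) and NES tumors and normal cortex for Fn1 (limma adjusted p = 0.00519; 11.1% of all genes changed in that pair). For Sparc they were GFAP cortex tumors and normal hippocampus (adjusted p = 0.0053; 23.9% of all genes) and for Tnc SVZ tumors and normal hippocampus (adjusted p = 0.00136; 31.9%). For Chi3l1 and Postn no neighbouring groups differed beyond their spread.

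Between tumor groups, few differences of the 10 genes exceeded the spread between arrays. Of the 10 pairs of tumor groups, 1 gave a call by limma. NES hippocampus tumors had less Cd44 than SYN1 cortex tumors (-1.24 ± 0.41, adjusted p = 0.0434; 14.0% of all genes changed in that pair), although NES tumor 1, at 9.93, overlapped with the SYN1 range of 9.83 to 10.27. Tes (-1.43 ± 0.54), Lgals3 (-1.21 ± 0.58), Emp1 (-1.18 ± 0.55) and Postn (-1.63 ± 0.68) lay below as well without passing, with adjusted p from 0.0783 (Tes) to 0.182 (Lgals3). Promoter and region both differ between these 2 groups and cannot be told apart. The Cd44 call did not hold when any SYN1 tumor, NES tumor 2, 3 or 4, or normal cortex 1, 2 or 4 was left out, with differences from -1.32 to -1.03. Between 0 and 4 of the 10 genes passed when 1 array was left out.

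Within hippocampus, all of the 10 genes but Chi3l1 had lower means in NES than in GFAP tumors, and 0 passed by limma (8.21% of all genes did). At an unadjusted p under 0.05 Lgals1 and Tes were lower, 2 of the 10 beside 5515 of all 19938 genes (27.7%) in either direction. Lgals1 differed by -1.04 ± 0.35 (limma adjusted p = 0.0631) and Tes by -1.07 ± 0.48 (adjusted p = 0.144). Lgals1 passed without NES tumor 1, GFAP hippocampus tumor 5 or GFAP cortex tumor 1, and Tes without NES tumor 1 (-1.61) or GFAP hippocampus tumor 5 (-1.49). When the 4 arrays that stood apart were left out, 4 genes were lower in NES tumors: Tes (-1.69), Lgals3 (-1.29), Cd44 (-1.09) and Fn1 (-0.97), with adjusted p from 0.0105 to 0.0451, beside 21.2% of all genes called in that fit (10.8% lower in NES tumors). With GFAP hippocampus tumors 5 to 7 alone as the GFAP group, the sign turned, without a call, for Cd44 (0.15), Emp1 (0.39), Tnc (0.19), Fn1 (0.44), Lgals3 (0.60) and Postn (0.76), all higher in NES tumors. Lgals1 was then lower (-1.18, limma adjusted p = 0.0457), beside 33.8% of all genes called (6.51% lower). The mean neuron marker level was 10.81 to 12.18 in NES tumors, 9.60 to 11.32 in GFAP hippocampus tumors and 12.04 to 12.32 in normal hippocampus, so the NES samples lay nearer to normal tissue in that measure. Its part in the lower levels of the 10 genes was not tested.

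The same promoter in another region, and another promoter in cortex, gave 0 calls among the 10 genes. That held for GFAP hippocampus against GFAP cortex tumors (2.68% of all genes changed; at an unadjusted p under 0.05 Lgals1, beside 18.0% of all genes), SVZ against GFAP cortex tumors (0.00502%; Postn beside 10.5%) and SVZ against GFAP hippocampus tumors (0.316%; none beside 15.2%). It held for SYN1 against GFAP cortex tumors as well (0.176%; none beside 14.7%), where the largest differences were Cd44 and Tes, both 0.72. Of the pairs that differ in promoter and region, NES against GFAP cortex tumors had 0.00% of all genes changed (0 genes, or 2067 at an unadjusted p under 0.05, 10.4% of all, none of the 10), SYN1 against GFAP hippocampus tumors 0.928% (Postn at an unadjusted p, beside 20.9%), SYN1 against SVZ tumors 0.0903% (Postn beside 6.49%) and NES against SVZ tumors 6.62% (Cd44, Lgals3 and Tes beside 22.9%). In the last pair Tes came closest, at -1.74 (adjusted p = 0.0642). The rise over normal tissue in GFAP tumors was not called different between hippocampus and cortex for any of the 10 (interaction term, limma; 0.838% of all genes; none at an unadjusted p under 0.05 beside 10.6%), with differences from -0.91 ± 0.91 for Postn to 1.06 ± 1.12 for Chi3l1. Without GFAP cortex tumor 1 these were -0.05 for Postn and 0.04 for Chi3l1. Between normal hippocampus and normal cortex 0 of the 10 passed by limma (1.29% of all genes did), and at an unadjusted p under 0.05 Sparc alone (beside 5.74% of all genes).

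Within groups the 10 genes often moved together, so that single arrays stood high or low for most of them. GFAP hippocampus tumor 5 was the lowest of its 7 for 9 of the 10 genes, Chi3l1 being the exception, with a mean deviation of -1.65 from the group mean. GFAP cortex tumor 2 was the lowest of its 4 for 9 genes, all but Chi3l1, with a mean deviation of -0.52. NES tumor 1 was the highest of its 4 for 9 genes, all but Chi3l1, with a mean deviation of 1.08, and NES tumors 3 and 4 were the lowest for 5 genes each. The neuron marker mean was 11.32 in GFAP hippocampus tumor 5 against 9.60 to 10.93 in tumors 1 to 4, 6 and 7, 11.66 in GFAP cortex tumor 2 against 8.15 to 11.05 in the other 3, and 10.81 in NES tumor 1 against 11.57 to 12.18 in NES tumors 2 to 4. Of these 3 arrays, those low in the 10 genes were the highest of their groups in neuron markers, and the one high in them was the lowest. Not every array followed that order. GFAP hippocampus tumor 7 had the lowest neuron mean of its group, 9.60, with a mean deviation of -0.30. NES tumor 4 lay below NES tumor 2 both in neuron mean (11.57 and 11.79) and in mean deviation (-0.65 and 0.23). How much normal tissue each sample held was not tested. Without GFAP hippocampus tumor 5, all 10 genes were higher in GFAP hippocampus tumors than in normal hippocampus.

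Normal hippocampus 3 was the highest of its 4 for 7 genes, with a mean deviation of 0.62, and was the lowest for 2, Chi3l1 and Postn. Its marker means (8.0 for macrophages and microglia, 8.34 for fibroblasts and mural cells, 12.32 for neurons) lay within or near the ranges of the other normal hippocampus arrays (7.83 to 8.19, 8.42 to 8.53 and 12.04 to 12.31). Leaving it out kept 9 calls in GFAP hippocampus and 9 in SVZ tumors and left 8 in NES tumors, Chi3l1 being lost.

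**Figure D4:**
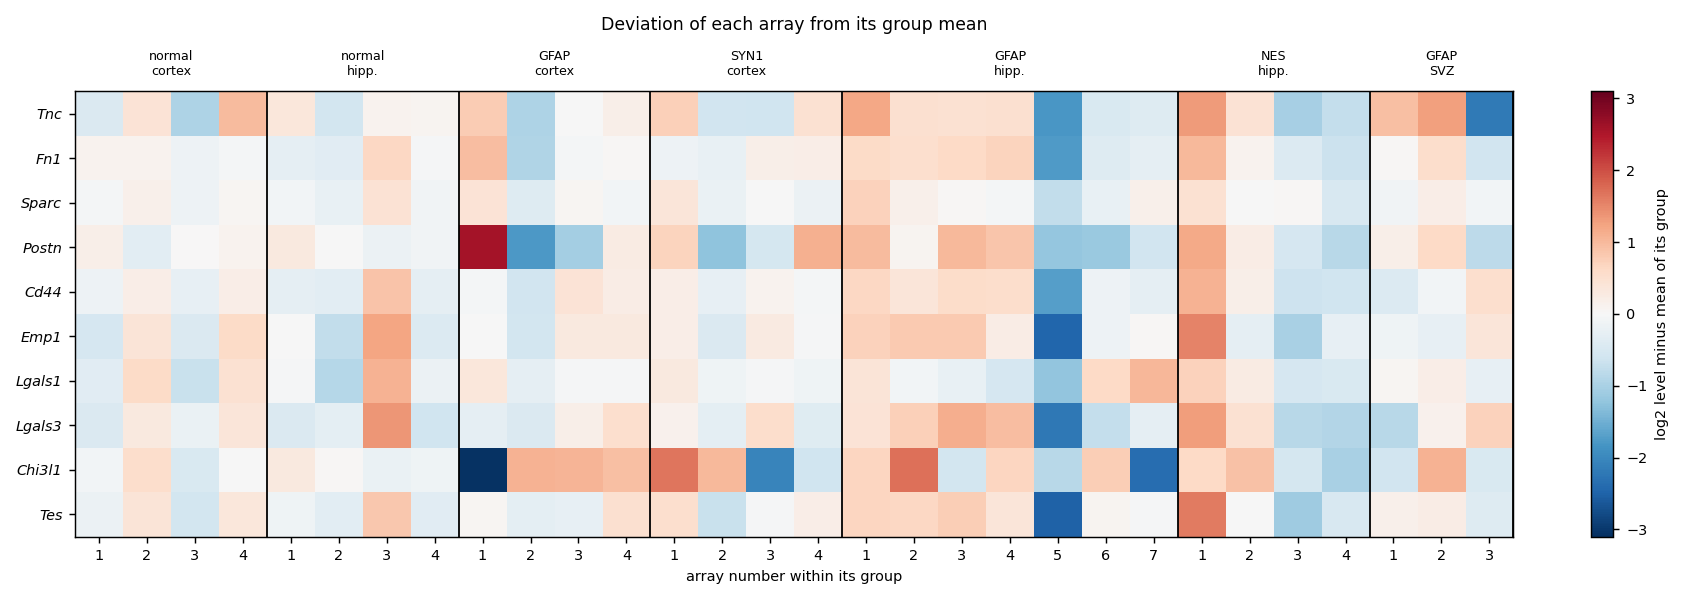
Deviation of each array from the mean of its group (color, log2 units) for the 10 genes (rows) and 30 arrays (columns, numbered within groups). Columns of a shared color mark arrays in which most genes moved together, such as GFAP hippocampus tumor 5 (mean deviation -1.65) and NES tumor 1 (1.08), and the Chi3l1 and Postn rows hold the extremes, -3.07 and 2.57, in GFAP cortex tumor 1.

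Markers of other cells also differed between tumors and normal brain. Of 10 macrophage and microglia markers, 8 were higher in GFAP cortex, 8 in SYN1 cortex, 9 in GFAP hippocampus, 9 in NES hippocampus and 8 in SVZ tumors, and their mean level was 8.86 to 10.45 in tumors against 7.83 to 8.19 in normal brain. Fibroblast and mural cell markers were higher in 6, 4, 4, 0 and 1 of 12 in the same order (2 of 12 in NES tumors at an unadjusted p under 0.05), with means of 8.39 to 10.36 against 8.20 to 8.53. Endothelial markers were higher in 2, 6, 6, 1 and 6 of 8 (4, 6, 6, 4 and 6 at an unadjusted p under 0.05). Neuron markers were lower in 8, 8, 8, 0 and 9 of 10 (0 in NES tumors at an unadjusted p under 0.05 too), with means of 8.15 to 12.18 against 12.04 to 12.46. Oligodendrocyte markers were lower in 5, 6, 2, 0 and 5 of 6 (0 in NES tumors at an unadjusted p under 0.05 too). Astrocyte markers were lower in 2, 4, 0, 0 and 4 of 8, while Aldh1l1 was higher in GFAP hippocampus tumors (0.81, limma adjusted p = 0.0344). At an unadjusted p under 0.05, 3 astrocyte markers were higher and 1 lower in GFAP hippocampus tumors, and 2 were higher and 0 lower in NES tumors. No defining marker was at 0 on any array, and a low signal does not show absence. The macrophage marker Lyz2 lay between 10.51 and 12.79 in the 22 tumors and between 7.43 and 8.77 in normal brain. The part of these cells in the levels of the 10 genes was not tested.

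Across the 30 arrays, each of the 10 was set beside every other named gene by the root mean square difference of their deviations from their own means (log2 units, a smaller value being more alike). These likenesses describe arrays that share the split between tumor and normal brain. Cd44 was most like Runx1, a transcription factor (0.26), Capg, an actin-capping protein (0.30), and Il13ra1 (0.30), against a root mean square of 1.45 for Cd44 itself. Lgals3 was most like Cd44 (0.34), the only case in which a member of the 10 ranked among the 3 nearest, then Runx1 (0.39) and Slc25a24 (0.40). Emp1 had Myof (0.32), Clic1 (0.32) and Capg (0.36), and Tes had Clic1 (0.29), Emp3 (0.31) and Myof (0.31). Lgals1 was nearest to the intermediate filament gene Vim (0.35), then Tm4sf1 (0.36) and Ctsl (0.42). Over the 22 tumor arrays alone, Runx1 had 0.29 against 0.71 for Cd44 itself, and Cd44 had 0.35 against 0.93 for Lgals3. Myof had 0.34 against 0.86 for Emp1, Clic1 0.30 against 0.96 for Tes, and Vim 0.32 against 0.61 for Lgals1.

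The matrix genes and Chi3l1 had these nearest genes. Tnc had Mmp2, a matrix metalloproteinase (0.55), Plau (0.65) and Nes (0.66), against 1.91 for Tnc itself. Fn1 had Lima1 (0.33), Myc (0.34) and Tpm2 (0.35). Sparc had Cdk4 (0.28), Rplp0 (0.29) and Rpl5 (0.30), with only 0.71 for Sparc itself. The least alike were those of Postn, Bgn (0.72), Col12a1 (0.72) and Itgb3 (0.73) against 1.33, and of Chi3l1, Cst7 (0.74), A2m (0.75) and Klk6 (0.76) against 1.56. Over the 22 tumor arrays alone, the same neighbours of Tnc had 0.44, 0.71 and 0.71 against 1.01. Those of Fn1 had 0.32, 0.36 and 0.32 against 0.69, and those of Sparc 0.29, 0.18 and 0.28 against 0.36. For Postn these were 0.74, 0.79 and 0.83 against 1.28, and for Chi3l1 0.84, 0.66 and 0.85 against 1.33.

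Relatives and partners of the 10 genes, in 10 lists with 84 measured genes, did not all move with them. Named are the gene of each list with the largest mean difference and paralogs of the members, while Tgfbi, Ccn1, Ccn3, Itgb1, Tgm2, Itgb5, Itga8, Has2, Hmmr, Hapln1, Ezr, Rdx, Ank3, Tln1, Lims1, Vcl, Prickle1 and Enah were chosen after their values were seen. In the tenascin family Tnr, the tenascin of perineuronal nets, differed by -1.43, -1.69, -1.53, -0.38 and -2.43 in GFAP cortex, SYN1 cortex, GFAP hippocampus, NES hippocampus and SVZ tumors, an order kept below. It was lower in all but NES tumors (limma adjusted p = 0.726), while 0 of the 3 relatives of Tnc were higher (1 in GFAP cortex tumors at an unadjusted p under 0.05). Relatives of Sparc were lower in 4, 4, 3, 1 and 4 of 7 and higher in 2, 1, 1, 0 and 0 (2 and 1 at an unadjusted p in the last 2 groups). The brain proteoglycan Spock1 differed by -2.19, -3.0, -1.94, -0.70 and -2.30, and Sparcl1, an astrocyte matrix protein, by -1.34, -1.46, -0.68, -0.38 and -1.77, both lower in the cortex and SVZ tumors. Spock1 was also lower in GFAP hippocampus tumors. Fstl1, of the same family, rose in the cortex and GFAP hippocampus tumors (differences 1.70, 2.18, 1.35, 1.04 and 0.94).

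Other matricellular genes were higher in 9, 6, 9, 3 and 8 of 13, with a median difference of 1.17, 0.84, 1.53, 1.23 and 1.59, and lower in 0, 1, 2, 1 and 1 (1 in GFAP cortex tumors at an unadjusted p under 0.05). Higher at that unadjusted threshold were 10, 9, 10, 9 and 8. Thbs1, thrombospondin 1, differed by 3.84, 4.96, 3.58, 1.73 and 3.82 and passed in all but NES tumors (adjusted p = 0.105). Tgfbi, a matrix protein induced by TGF-beta, rose in all 5 groups (3.21, 3.74, 2.58, 2.61 and 3.76), as did Ccn1 (2.54, 2.54, 3.23, 2.30 and 3.45). Ccn3 differed by -1.10, -1.76, -2.02, -1.74 and -2.08 and was lower in all but GFAP cortex tumors (adjusted p = 0.0501). The other lower gene in GFAP hippocampus tumors was Thbs4, thrombospondin 4 (-1.01, adjusted p = 0.0144), named after its values were seen.

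Receptors for fibronectin and related ligands were higher in 8, 11, 10, 7 and 11 of 13, with medians of 1.17, 1.57, 1.21, 1.13 and 1.35. Higher at an unadjusted p under 0.05 were 9, 11, 10, 10 and 11. Itga5, the alpha subunit of the main fibronectin receptor, rose by 3.69, 4.35, 2.96, 2.26 and 4.04, and its partner Itgb1 by 2.76, 3.42, 3.62, 2.22 and 2.93. The cross-linking enzyme Tgm2 (1.77, 2.40, 2.41, 1.51 and 1.94) and Itgb5 (1.17, 1.57, 1.26, 1.10 and 0.97) also rose in all 5. Itga8 was lower in SVZ tumors (-1.39, adjusted p = 0.0464) and passed in no other group.

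On the side of Cd44, genes for making, breaking and binding hyaluronan were split, with 3, 4, 5, 2 and 5 of 14 higher and 3, 5, 7, 2 and 7 lower. Has2, a hyaluronan synthase, differed by 1.87, 2.91, 1.60, 1.05 and 1.93 and passed in all but NES tumors (adjusted p = 0.201). Vcan, the proteoglycan versican, rose in all 5 groups (1.99, 2.51, 1.5, 1.72 and 1.66), as did the hyaluronan receptor of motile and dividing cells, Hmmr (1.57, 1.85, 1.67, 1.53 and 1.90). Hapln1, which links hyaluronan to proteoglycans in perineuronal nets, fell in all but NES tumors (-1.58, -2.32, -1.92, -1.13 and -2.54). Of the proteins that tie Cd44 to the actin skeleton, Msn, moesin, rose in all 5 groups (3.02, 3.91, 3.15, 2.32 and 3.25), Ezr passed in SVZ tumors alone (0.90) and Rdx in SYN1 tumors alone (0.54). Ank3 was lower in all but NES tumors (-1.38, -1.57, -1.34, -0.54 and -1.67).

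Among relatives of Emp1, Emp3 rose in all 5 groups (3.03, 3.97, 3.41, 2.65 and 4.13), Emp2 in the cortex tumors (0.99 and 1.78), Pmp22 in NES tumors (1.13, adjusted p = 0.0448) and Perp in none. In the galectin family 4, 5, 3, 3 and 3 of 7 were higher and 0 lower (1 lower in SYN1 tumors at an unadjusted p under 0.05, 0 elsewhere). Lgals9 (1.65, 2.08, 1.17, 2.13 and 1.55) and Lgals3bp, a galectin-3 ligand (1.95, 2.53, 2.12, 2.81 and 2.60), rose in all 5, and so did Lgals8 (0.65, 1.21, 0.61, 0.80 and 0.96). Lgals2 and Lgals12 passed in none. Of 5 chitinase-like genes 0, 2, 2, 0 and 2 were higher (1 in GFAP cortex and 0 in NES tumors at an unadjusted p under 0.05) and 0, 1, 1, 0 and 1 lower (0 in GFAP cortex and NES tumors at an unadjusted p too). The lower gene was Chia1, an active chitinase (-0.33, -0.61, -0.59, -0.16 and -0.49), named after its values were seen. Chil3, made by alternatively activated macrophages, differed by 1.01, 2.69, 1.99, 0.37 and 1.33, and passed where Chil4 did, in SYN1, GFAP hippocampus and SVZ tumors.

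Partners of testin at focal adhesions were higher in 6, 8, 9, 2 and 10 of 13 and lower in 3, 3, 2, 1 and 3. Tln1, talin, which activates integrins, rose in all 5 groups (1.56, 2.13, 1.60, 1.26 and 1.86), as did the adaptor Lims1 (1.25, 1.95, 1.12, 1.10 and 1.5). Vcl, vinculin, differed by 1.81, 2.13, 1.61, 1.10 and 2.31 and Fhl3 by 1.83, 2.73, 1.90, 1.25 and 3.08, and both passed in all but NES tumors (adjusted p = 0.098 and 0.155). Prickle1, a planar polarity gene rather than a focal adhesion gene, was counted among the 13. It was lower in all 5 groups (-1.40, -1.27, -0.92, -0.75 and -1.58) and was the 1 lower gene in NES tumors. Enah fell in all but NES tumors (-0.80, -1.37, -1.44, -0.41 and -1.23). In NES tumors fewer partners passed than in the other groups, beside 5.69% of all genes called higher there. At an unadjusted p under 0.05, 8, 8, 9, 7 and 10 of the 13 were higher. In NES tumors 21.9% of all genes passed that threshold in either direction. Differences between groups in these counts were not tested.

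**Figure D5:**
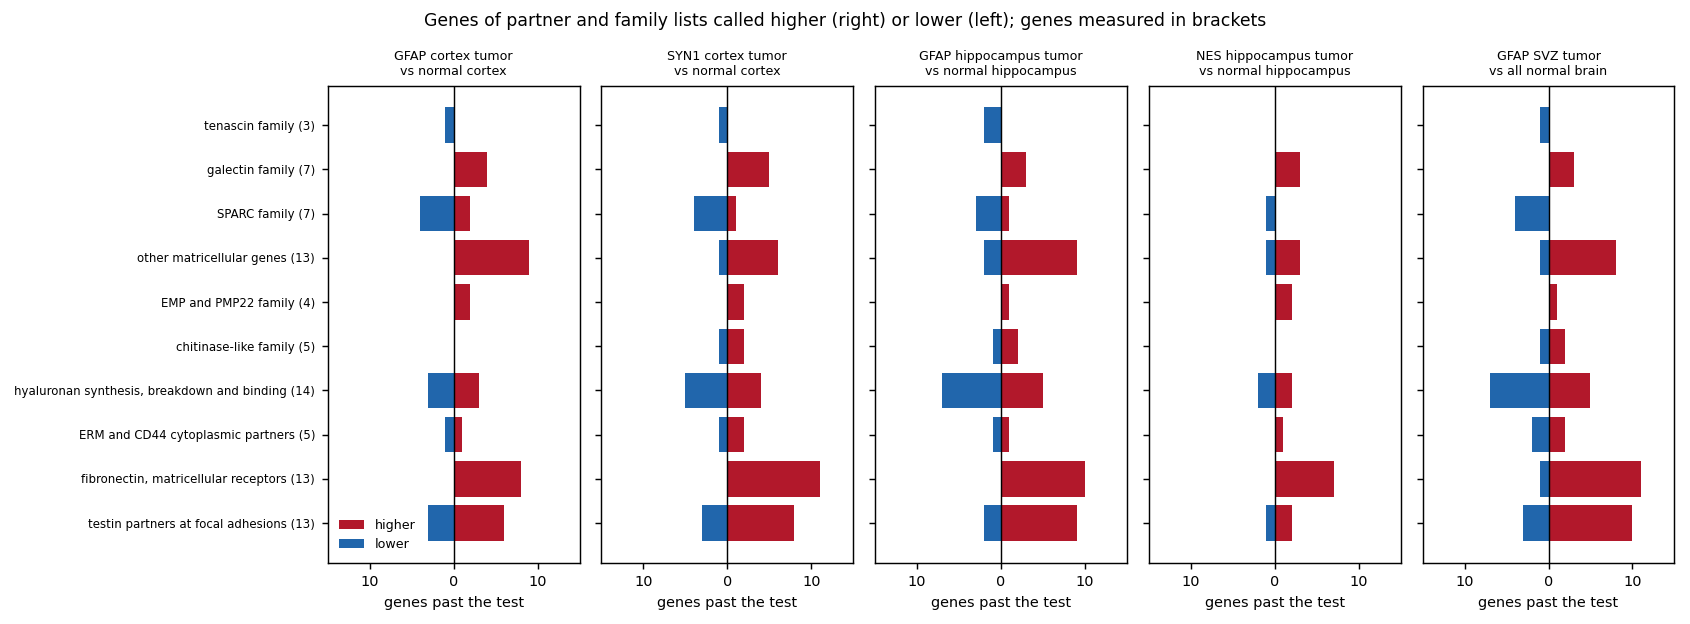
Number of genes of each partner or family list called higher (red, to the right) or lower (blue, to the left) at limma adjusted p under 0.05 in each of the 5 comparisons with normal brain, with the genes measured in brackets. Receptor genes lie almost wholly to the right (8, 11, 10, 7 and 11 of 13), and the SPARC family mostly to the left (4, 4, 3, 1 and 4 of 7).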

How the data were processed

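Total RNA from 30 mouse brain samples was hybridised to Affymetrix Mouse Gene 1.0 ST arrays. The values are log2 signals per probe set as deposited by the authors. Per the submitters' processing notes RMA, MAS5 and Affymetrix Power Tools were used, with no version or role given, and the normalization between arrays is not given in the sources used here. Of 35556 probe sets, 21789 had 1 gene symbol, 1621 several and 12146 none in the platform annotation, and 21698 matched RefSeq (GRCm38.p6). For the 999 genes with over 1 probe set, the one with the highest mean over all arrays was kept, which gave 19938 genes.

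Means of the 7 groups were fitted over all 30 arrays and all genes with limma 3.58.1 (R 4.3.3), with eBayes and Benjamini-Hochberg adjustment over all genes at 0.05, and no filter. The script was tested on simulated data. SVZ tumors were compared with the mean of the normal cortex and hippocampus means. The number of arrays limits the precision. No 2 arrays held identical values (highest correlation 0.991). Tables were handled with Python 3.11.15 and pandas 2.3.3.

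The 10 members and all lists were chosen with earlier results of these data known. The text names all members, the gene of each list with the largest mean difference, paralogs of members, and the 3 genes most alike in pattern, skipping predicted genes. In the lists 84 of 87 genes and 54 of 55 markers were measured. Alternatives were median centring, quantile normalization, removal of the lowest 30% of genes, the mean of probe sets, trended robust eBayes, only the groups compared, array weights, stricter thresholds, a replicate block and leaving out arrays. Replicate numbers are shared between groups. Deviations of same-numbered arrays correlated above 0.1 in every pair for GFAP hippocampus against GFAP cortex tumors alone (0.277 to 0.306), where the block changed no call of the 10 genes.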

Additional observations from a re-analysis of the deposited data

Results flagged for a closer look

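In 60 groups of values (each gene in each group of 4 to 7 arrays), 6 held an array whose gap to its nearest neighbour was large against the range of the group, where chance gives about 1 in 20. GFAP hippocampus tumor 5 was low in 3 genes. Its Cd44 level was 7.69 (9.13 to 10.05 in the other 6), its Emp1 level 8.66 (10.96 to 11.94) and its Tes level 8.58 (11.04 to 11.85). Normal hippocampus 3 was high in 2 genes, with Cd44 at 7.61 (6.41 to 6.46 in the other 3) and Lgals3 at 9.18 (7.19 to 7.50). GFAP cortex tumor 1 had Chi3l1 at 7.73, against 11.74 to 11.87 in the other 3.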

How the results depend on the processing

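Against normal brain, between 7 and 10 of the 10 genes were higher under every alternative run, and no difference of any comparison changed sign past the threshold. The lowest count, 7, came in NES tumors without NES tumor 1, where Chi3l1 and Lgals3 were lost. Between tumor groups, counts depended on the setting. For NES against GFAP hippocampus tumors (0 as reported), 1 gene passed with median centring, 1 with array weights, 2 with GFAP hippocampus tumors 1 to 4 only, 1 with tumors 2 to 4 only, 1 with tumors 5 to 7 only, 4 without the 4 arrays that stood apart, and 0 to 2 with 1 array left out. For NES against SYN1 cortex tumors (1 as reported), 2 passed with quantile normalization, 0 with only the groups compared, 5 with array weights, 0 at an adjusted p under 0.01, 3 with GFAP hippocampus tumors 1 to 4 only, 2 with tumors 2 to 4 only, 5 without the 4 arrays and 0 to 4 with 1 array left out. Normal hippocampus against normal cortex gave 1 (Sparc) instead of 0 with quantile normalization, only the groups compared and array weights, and the interaction gave 1 (Sparc, -0.92) with quantile normalization. SVZ against GFAP cortex tumors gave 1 with array weights (Tes, 1.24). GFAP hippocampus against GFAP cortex tumors gave 1 without the 4 arrays (Sparc, 0.72) and 1 with tumors 5 to 7 only (Postn, -2.10), and SVZ against GFAP hippocampus tumors gave 2 with tumors 5 to 7 only (Cd44, 1.20, and Lgals3, 1.95). The settings with tumors 2 to 4 and 5 to 7 were chosen after seeing the data. The causes of these changes were not tested. Median centring moved the median of all genes by up to 0.12.

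The replicate block pairs arrays by number alone, since no label pairs them in any comparison. With it, 8 genes passed in GFAP cortex, 10 in SYN1 cortex, 10 in GFAP hippocampus, 10 in NES and 9 in SVZ tumors. The block gave 2 for NES against GFAP hippocampus tumors, 1 for normal hippocampus against normal cortex and 0 for NES against SYN1 tumors. Correlations of same-numbered pairs ran from -0.394 to 0.565. Signal over background limits dim genes.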

Other observations

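Normal hippocampus 3 differed from the other normal hippocampus arrays in more than the 10 genes. There were 74 genes over 1 log2 unit above the mean of the other 3 arrays, where each of the other normal hippocampus arrays had 2 to 6. Of the 74, 71 (95.9%) were among the genes called higher in SYN1 cortex tumors, as were 18.2% of all genes, and 61 (82.4%) among those called higher in GFAP cortex tumors, as were 9.00% of all genes. Neither comparison used the hippocampus arrays in its means. Chosen after their values were seen, Dynap was 10.15 (6.19 to 6.96 in the other 3), S100a6, a calcium-binding protein gene, 10.25 (7.08 to 7.95), Chrna1, a muscle acetylcholine receptor gene, 9.63 (6.82 to 7.06) and Timp1, a metalloproteinase inhibitor gene, 9.92 (6.84 to 7.89).

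In normal cortex, arrays 2 and 4 lay above arrays 1 and 3 for most of the 10 genes, with mean deviations of 0.28 and 0.31 against -0.20 and -0.39.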
